A study of Mus musculus with 24 samples.

Results

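The genes described here encode the proteins of the mitochondrial ribosome (mitoribosome). Members were all protein-coding genes of the count files whose symbol begins with Mrpl or Mrps followed by a number. The rule used no measured value and found 78 genes among 55471, of which 49 carry Mrpl and 29 Mrps symbols. A further 5 matching symbols belong to processed pseudogenes and were left out. Levels were counted in 24 mRNA libraries of B6D2F1 mouse embryos, each made from a pool of 10 embryos. There were 6 groups of 4 libraries: wild type (WT, titled NC), Ttf1 knockout (Ttf1_KO) and Zfp622 knockout (Zfp622_KO) embryos, each collected as late 2-cell embryos (L2C) and as morulae (Mor). Zygotes of all groups came from superovulated B6D2F1 females aged 3 to 4 weeks mated with males of the same strain. For the knockouts the cytoplasm of zygotes received Cas9 protein at 100 ng/µL with 3 guide RNAs against 1 gene at 50 ng/µL each. The labels do not say whether WT zygotes were injected or give an editing rate, so a knockout library is a pool of injected embryos of unstated genotype mix.

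The mitoribosome translates the few proteins encoded by mitochondrial DNA, all of them parts of the respiratory chain and ATP synthase. Its 2 rRNAs are transcribed from mitochondrial DNA, whereas every one of its proteins is encoded in the nucleus, made in the cytosol and imported. Some of these proteins descend from the bacterial ribosome and others were added in mitochondria. Preimplantation embryos begin with mitochondria and mRNAs inherited from the egg and replace the maternal mRNAs after their own genome is switched on. Ttf1 encodes a factor that terminates transcription of the nuclear rRNA genes, and Zfp622 a zinc finger protein involved in the maturation of the large cytosolic ribosomal subunit.

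By the roles of their products, 28 members belong to the large subunit and have a bacterial counterpart, and 23 are large-subunit proteins found only in mitochondria. Of the small subunit, 16 have a bacterial counterpart and 10 are specific to mitochondria. Symbol and subunit differ for Mrps30 and Mrps18a, whose products sit in the large subunit. Mrps36 matches the rule, but its product is a component of the 2-oxoglutarate dehydrogenase complex and not of the ribosome. The members lie on 17 chromosomes, and 40 of them overlap another annotated gene. Counting used no strand, and read pairs shared with an overlapping exon were not assigned, so levels of such genes are uncertain, as are those of genes with processed pseudogenes.

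Total counts ran from 10538723 to 13528954 per library at L2C and from 12690369 to 17807596 at Mor. All levels below are CPM, the counts relative to library size, scaled by the TMM method over all 24 libraries, or, for comparisons between genes, CPM per kilobase of exon. Errors are SD over the 4 libraries of a group, and values of single libraries are given in the order of their replicate numbers. The targeted genes were lower in their own knockouts but not lost. Ttf1 mRNA stood at 73.95 ± 4.27 CPM in WT_L2C and 27.1 ± 3.82 in Ttf1_KO_L2C (log2 fold change -1.45, edgeR adjusted p = 3.21e-07). At Mor it stood at 52.9 ± 1.50 CPM in WT and 31.0 ± 1.66 in Ttf1_KO (-0.76, edgeR adjusted p = 3.47e-05). Zfp622 fell by 1.42 on the log2 scale at L2C (edgeR adjusted p = 0.00243) and by 1.78 at Mor (edgeR adjusted p = 0.00105). All Ttf1_KO libraries were sequenced on lane 1 and all others on lane 2, so lane and the Ttf1 knockout cannot be told apart.

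Stage and cell markers were set beside the groups. All 6 late 2-cell markers were lower in WT_Mor than in WT_L2C, and 5 of 6 morula markers were higher. The sixth, Upp1, was lower (3.70 against 28.8 CPM). At Mor the summed level of the morula markers was 1139 to 1226 CPM in WT, 402 to 628 in Ttf1_KO, where 4 of 6 were lower by test, and 439 to 894 in Zfp622_KO, where 3 of 6 were lower. The late 2-cell markers summed to 14.2 to 43.8, 26.9 to 121 and 44.4 to 63.5 CPM in the same order, and 2 of 6 were higher by test in each knockout. The 9 blood markers summed to 11.8 to 15.9, 25.7 to 44.5 and 32.1 to 45.5 CPM at Mor. Of these, Cd68 and Hba-a1 were higher by test in each knockout, while S100a8, S100a9 and Hbb-bt had no count in any library of those groups. The 8 sperm markers reached at most 2.15 CPM in sum, and 1 of them, Prm2, was the only one tested and was higher in each knockout. The 10 cumulus and granulosa markers summed to 3.05 to 5.54 CPM over all Mor libraries, and neither of the 2 that could be tested passed in a knockout. The part of these differences in the knockout results at Mor was not tested, and in pools of embryos fewer cells of a type and less RNA per cell cannot be told apart.

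Promoter sequences are shown as a description of the members, and a link between motifs and changes between the stages was not tested. RefSeq promoters (GRCm38.p6, 250 bases before to 50 bases after each start) were matched by symbol for 69 members in 75 windows. They were searched on both strands for CCGGAAG, the core bound by ETS-family factors such as GABP, for GCATGCGC, a half-site of NRF1, and for AAGATGGC, bound by YY1. GABP, NRF1 and YY1 are known regulators of nuclear genes for mitochondrial proteins. The ETS core was present in 26 of the 69 genes (37.7%, against 12.9% of all protein-coding genes of the table), the NRF1 half-site in 8 (11.6% against 3.93%) and the YY1 motif in 12 (17.4% against 3.57%). At least 1 of the 3 was present in 38 (55.1% against 18.7%), and in 36 of 66 cytosolic ribosomal protein genes (54.5%). Over windows rather than genes, the ETS core was in 34.7% of those of members, 11.6% of those of protein-coding genes and 8.86% of all in the table. The members' windows also held more CpG pairs (median 21 against 13 for protein-coding genes), and a match is a description of these letters, not a bound site. The stretches below run from 160 to 20 bases before the start, lie on the plus strand outside annotated exons, and are printed 5′ to 3′ with matches in capitals. They were chosen among named members that hold a match. They are those of the member with the highest level at Mor and of an S18 paralogue that rose strongly. The others are those of a member whose Ttf1 knockout effect differed between stages and of a member that fell between the stages. Mrpl22 (chr11:58171504-58171644) holds the ETS core and, on the opposite strand, the NRF1 half-site. Mrps18a (chr17:46110844-46110984) and Mrpl34 (chr8:71464766-71464906) hold the ETS core, and Mrpl52 (chr14:54426749-54426889) holds it on the opposite strand.
Mrpl22: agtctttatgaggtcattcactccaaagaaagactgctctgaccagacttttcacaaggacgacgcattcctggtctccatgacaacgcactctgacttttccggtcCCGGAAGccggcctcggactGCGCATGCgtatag
Mrps18a: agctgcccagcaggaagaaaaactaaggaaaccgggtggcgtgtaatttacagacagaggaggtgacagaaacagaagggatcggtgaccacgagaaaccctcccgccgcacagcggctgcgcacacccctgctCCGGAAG
Mrpl52: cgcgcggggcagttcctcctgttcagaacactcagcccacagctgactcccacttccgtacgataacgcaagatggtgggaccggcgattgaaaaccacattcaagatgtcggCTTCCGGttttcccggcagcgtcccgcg
Mrpl34: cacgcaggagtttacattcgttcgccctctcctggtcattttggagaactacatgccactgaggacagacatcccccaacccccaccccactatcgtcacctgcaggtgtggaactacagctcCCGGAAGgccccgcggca
Since these members were chosen for holding a match, the ETS core in them says nothing about the direction of change. Of other members with large rises, Mrps31, Mrpl11, Mrps5 and Mrpl30 held none of the motifs and Mrpl36 held only that of YY1. Of those that fell, Mrpl41 and Mrps6 held none and Mrps26 held the ETS core.

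At L2C the members formed a small share of the mRNA with very unequal levels, and at Mor a larger one with levels closer together. Per kilobase, the median member stood at 13.0 CPM in WT_L2C and 45.6 in WT_Mor. The SD of log2 level among the 77 members with counts was 2.01 in WT_L2C and 1.28 in WT_Mor, and the upper quartile was 6.78 times the lower at L2C and 3.88 times at Mor. Single members also varied more between libraries at L2C, with a median coefficient of variation of 14.1% in WT_L2C and 5.53% in WT_Mor. Depth differed between the stages as given above, and its part in this was not tested. The same held in the knockouts, with SDs of log2 level of 2.04 and 2.02 at L2C and of 1.34 and 1.30 at Mor in Ttf1_KO and Zfp622_KO.

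Over both WT stages, the highest members per kilobase were Mrpl22, Mrpl34, Mrpl18 and Mrpl12. This ranking depends on the lengths used, which cover all annotated exons of a gene. They were 981 and 607 bases for Mrpl22 and Mrpl34, and 8631, 8152 and 6578 for the low members Mrps35, Mrpl48 and Mrps5. Mrpl15, with 8487 bases, stood at 415 CPM in WT_Mor but at 48.9 CPM per kilobase. Mrpl22, a protein that lines the exit tunnel of the nascent chain, rose from 84.8 ± 7.08 to 511 ± 27.6 CPM per kilobase and was the highest member at Mor. Mrpl34, a small protein of the large subunit, stood at 207 ± 41.4 CPM per kilobase at L2C, where it was the highest member, and at 155 ± 14.5 at Mor. Mrpl18 went from 76.1 ± 8.49 to 178 ± 5.84 CPM per kilobase. Mrpl12, which forms the stalk that recruits translation factors, went from 65.2 ± 6.23 to 145 ± 8.70. In WT_L2C, Mrpl22 stood above Mrpl12 by more than the SDs of both together, while libraries of Mrpl18 overlapped with those of each. At the low end, Mrpl48 stood at 2.66 ± 0.329 and 8.75 ± 0.462 CPM per kilobase, Mrps35 at 0.333 ± 0.123 and 6.61 ± 0.266, and Mrps5 at 0.258 ± 0.141 and 6.48 ± 0.261. Mrps35 and Mrps5 did not differ beyond their spread at either stage. Mrpl53 (6:83109040-83109939) had no count in any of the 24 libraries, overlaps 2 other genes and could not be tested, which leaves 77 members.

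The summed level of the 78 members was higher at Mor than at L2C in WT. It was 3489, 3543, 3090.5 and 3280.2 CPM in the WT_L2C libraries and 9915, 9888, 10479 and 9818 in those of WT_Mor. Every WT_Mor library lay far above every WT_L2C library. The share of all counts went from 0.406% ± 0.0279 to 0.815% ± 0.0177. Large-subunit genes with a bacterial counterpart went from 1207 ± 100.1 to 4672 ± 166 CPM and those specific to mitochondria from 1221 ± 62.1 to 2678 ± 74.7. The 2 large-subunit classes thus stood at nearly the same sum at L2C and far apart at Mor. Small-subunit genes with a bacterial counterpart went from 665 ± 32.8 to 1650.2 ± 49.3 CPM and those specific to mitochondria from 232 ± 24.9 to 989.6 ± 32.6.

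**Figure D1:**
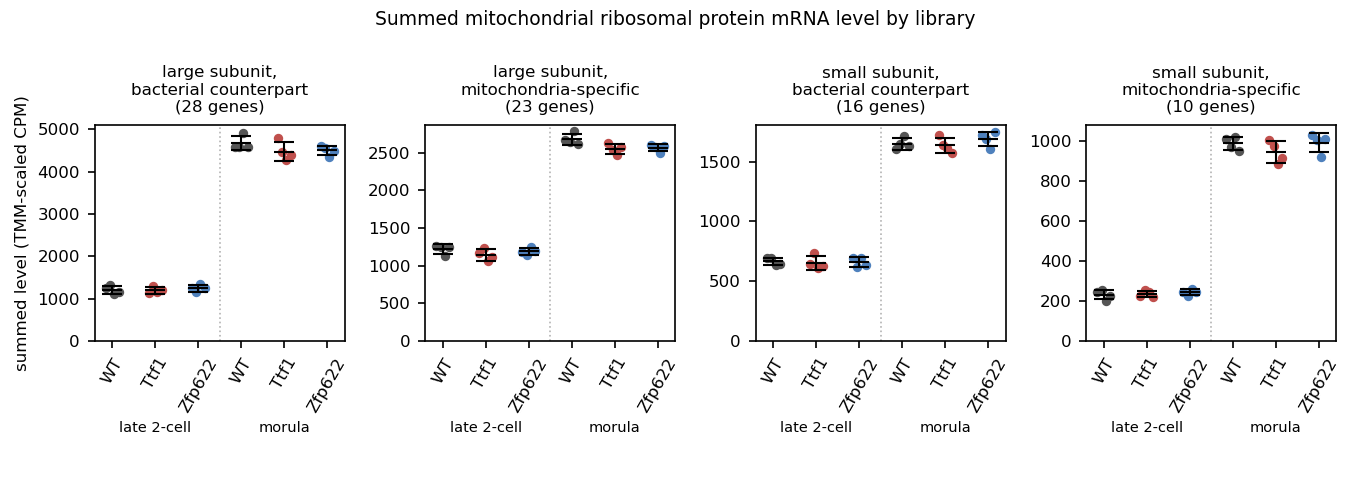
Summed TMM-scaled CPM of the members in each of the 4 subunit classes, by library; the x axis gives the 6 groups, each point is 1 library and the bar is the group mean with its SD. In each class the 12 Mor libraries lie above the 12 L2C libraries, while the genotypes of a stage lie close together.

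Most members rose from L2C to Mor in WT. In edgeR's quasi-likelihood test over all 24 libraries with Benjamini-Hochberg adjustment over 18864 genes, 70 of 77 members were called higher at Mor (90.9%, against 37.9% of all genes) and 4 lower (5.19%, against 46.1%). Of all genes, 7141 were higher and 8701 lower, and 5595 and 10420 with total-count scaling. The median member changed 4.03-fold (log2 2.01, quartiles 1.04 and 2.88), while the median of all genes tested was -0.30. Among the members 59 rose at least 2-fold, 39 at least 4-fold and 17 at least 8-fold. By class, 27 of 28 large-subunit members with a bacterial counterpart were higher (median log2 change 2.50), 19 of 22 of those specific to mitochondria (1.81), 14 of 16 small-subunit members with a bacterial counterpart (2.16) and 9 of 10 of those specific to mitochondria (2.43). In each of these 4 classes 1 member was lower. With total-count scaling 5 of the large-subunit members specific to mitochondria were lower and 16 higher.

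The direction of the smaller changes depends on the scaling. With scaling to total counts the median of all genes was -0.87, a shift of -0.57, and 63 members were higher and 9 lower. The members' median then was 1.44. It stood 2.31 above that of all genes under both scalings, but a change of scaling shifts every gene by nearly the same amount. This distance therefore cannot test the scaling. With median-of-ratios scaling 68 members were higher and 4 lower (6898 and 9033 of all genes). The sign turned under total counts for 8 members with small changes under TMM, namely Mrpl38, Mrps30, Mrpl40, Mrps11, Mrpl45, Mrps36, Mrps14 and Mrpl51. Of these, Mrpl38, Mrps30, Mrpl40, Mrps11 and Mrpl45 were called lower with total counts. Mrpl40 and Mrpl45 were thus called in opposite directions, higher under TMM and lower under total counts.

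The largest rises were of genes with low levels at L2C, which is partly built in, since that level is the base of the change. Mrps31 (8:22411361-22429665), a small-subunit protein specific to mitochondria, stood at 3.01, 2.29, 2.24 and 0.990 CPM in WT_L2C and at 145, 130.0, 131 and 121 in WT_Mor. The change was 62.2-fold (log2 5.96 ± 0.25 SE, edgeR adjusted p = 2.79e-17). Mrpl36 (13:73328513-73332178), a zinc-binding protein of the large subunit whose gene overlaps Ndufs6 on the other strand, stood at 10.1, 9.39, 4.55 and 4.69 CPM in WT_L2C and at 219, 229, 213 and 198 in WT_Mor. Its log2 change was 4.91 (edgeR adjusted p = 7.5e-16). Mrpl11 (19:4962147-4966999), part of the base of the factor-binding stalk, stood at 2.65, 2.84, 2.69 and 3.17 CPM and at 88.3, 83.7, 84.0 and 68.7, a log2 change of 4.83 (edgeR adjusted p = 4.96e-23). In all of these genes the lowest Mor library was many times the highest L2C library.

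Of the next largest rises, Mrps5 went from 1.70 ± 0.926 to 42.6 ± 1.72 CPM (log2 4.66) and Mrps35 from 2.88 ± 1.06 to 57.1 ± 2.29 (log2 4.30). Mrpl30 went from 7.41 ± 1.17 to 143 ± 6.54 CPM (log2 4.27). Mrpl19, a large-subunit protein with a bacterial counterpart, went from 8.15 ± 2.94 to 115 ± 6.34 (log2 3.82). All of these were far past the threshold. Mrpl22, already abundant at L2C, rose 6.02-fold, and Mrpl58, a peptidyl-tRNA hydrolase built into the large subunit that releases stalled chains, rose 6.48-fold, from 13.0 to 83.9 CPM. Mrpl12 rose 2.23-fold.

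The 3 paralogues of the bacterial S18 protein, which occupy different places in the mitoribosome, all rose. Mrps18a, which sits in the large subunit, went from 7.83 ± 2.02 to 113 ± 6.40 CPM (log2 3.86, edgeR adjusted p = 9.17e-14). Mrps18b, in the small subunit, went from 32.1 ± 2.01 to 245 ± 16.0 CPM (log2 2.93). Mrps18c, also in the small subunit and closest to the bacterial protein in its place there, went from 8.97 ± 2.06 to 65.9 ± 3.53 CPM (log2 2.88). Per kilobase their WT_Mor levels were 30.7 ± 1.74, 117 ± 7.68 and 61.2 ± 3.28 CPM. Mrps18b was the highest by either measure. Mrps18a was the lowest per kilobase, but in CPM it stood above Mrps18c. Their order thus depends on the exon lengths used, 3690 bases for Mrps18a and 1076 for Mrps18c.

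Only 4 members fell, under TMM scaling, and each of them stood above the median member of 28.8 CPM in WT_L2C. Per kilobase, Mrps26 (13.4 CPM) stood near the median of 13.0. The L2C level is the base of the change, so a link between level and direction is partly built in. Mrpl41, a large-subunit protein specific to mitochondria, stood at 113, 115, 94.1 and 129 CPM in WT_L2C and at 59.9, 59.3, 53.1 and 51.0 in WT_Mor, and fell by 1.02 on the log2 scale (edgeR adjusted p = 2.69e-11). Mrps6, which overlaps Slc5a3 on the same strand, fell by 0.57, from 102.7 ± 2.95 to 69.1 ± 8.78 CPM. Mrpl34 fell by 0.41 (edgeR adjusted p = 0.0067), and its WT_L2C values of 116, 149, 94.6 and 142 CPM overlapped those in WT_Mor of 81.4, 101, 99.3 and 95.4. Mrps26 fell by 0.39 (edgeR adjusted p = 0.00944), from 67.2, 67.5, 51.5 and 48.1 to 41.8, 41.7, 47.6 and 48.1 CPM, with groups that touch closely but do not overlap. The 3 members not called were Mrpl38 (log2 0.10), Mrps30 (0.15) and Mrps11 (0.21), each with overlapping groups. Mrps30 was steady between libraries at Mor, at 111, 111, 113 and 110.03 CPM. Mrps36, the member that is not a ribosomal subunit, rose by 0.39, from 26.9 ± 1.89 to 35.1 ± 1.10 CPM, one of the smallest rises called.

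**Figure D2:**
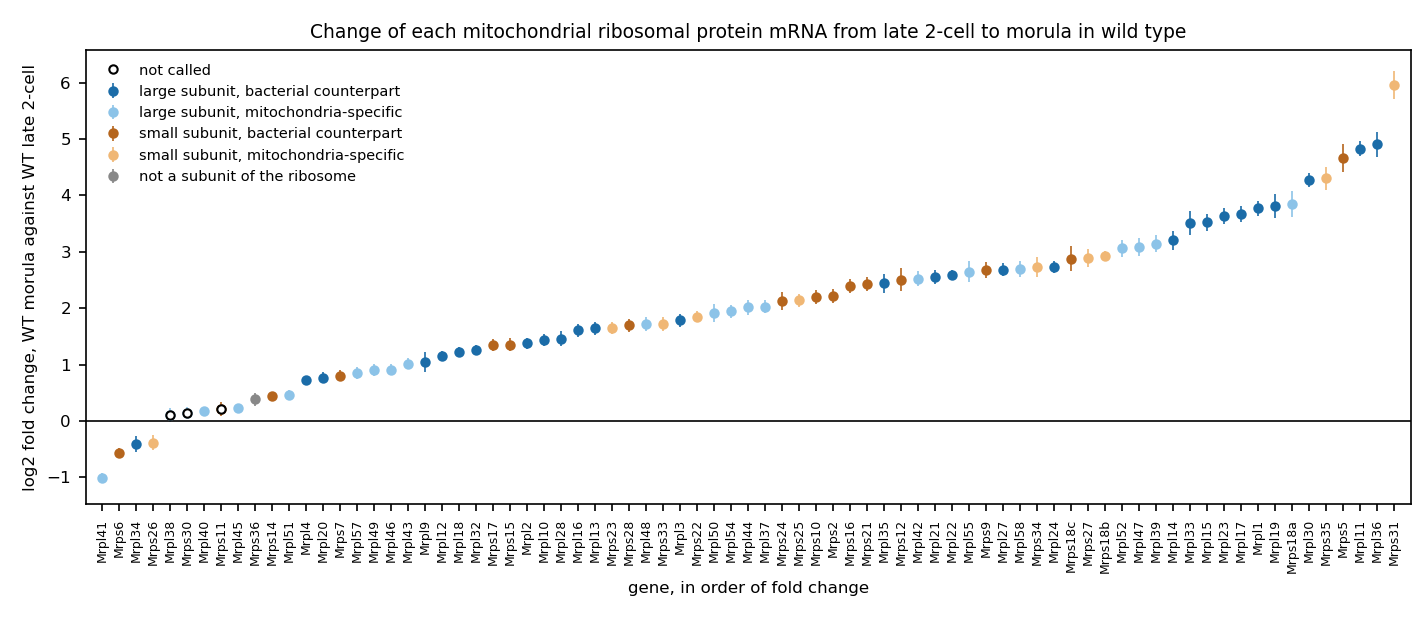
Log2 fold change of each of the 77 tested members between WT_L2C and WT_Mor (y axis), in order of size (x axis), coloured by subunit class; bars are SE and open symbols mark members not called. The changes run from -1.02 (Mrpl41) to 5.96 (Mrps31), and 70 members were called higher.

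At L2C no member was called against WT in either knockout. In the test over the 12 L2C libraries and 16770 genes, 0 of 77 members passed in Ttf1_KO, where 0.739% of all genes were higher and 0.799% lower (124 and 134 genes, and 141 and 96 with total-count scaling). At an unadjusted p of 0.05, 3 members were higher and 10 lower, and DESeq2 called 1 higher and 2 lower. The members with the smallest p were Mrpl41 (88.2, 91.8, 84.8 and 91.2 CPM in Ttf1_KO_L2C against 113, 115, 94.1 and 129 in WT, log2 -0.35, edgeR adjusted p = 0.0616), Mrps14 (log2 -0.29, edgeR adjusted p = 0.0656) and Mrpl4 (log2 0.29, edgeR adjusted p = 0.104). The groups of all 3 lay side by side without overlap. In Zfp622_KO 0 of 77 passed, where 0.00596% of all genes were higher and 0.0119% lower. Here 1 member was higher and 3 lower at an unadjusted p of 0.05, and DESeq2 called 0. For both knockouts, shares of all genes at the unadjusted p or by DESeq2 were not set beside these counts. The counts are therefore not read as a trait of the members. The members with the smallest p were Mrpl16 (log2 -0.41, edgeR adjusted p = 0.627, 14.9 ± 0.924 CPM against 19.7 ± 2.86), Mrpl45 (log2 -0.24) and Mrpl4 (log2 0.21). The summed level was 3248 ± 205 CPM in Ttf1_KO_L2C and 3366 ± 176 in Zfp622_KO_L2C, against 3351 ± 207 in WT_L2C, differences within the spread of the libraries.

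At Mor single members moved in both directions in the Ttf1 knockout, and all changes were small. Of 77 members 6 were called higher (7.79%, against 21.3% of 14865 genes) and 21 lower (27.3%, against 17.9%). The median member changed by -0.08 on the log2 scale, against 0.04 for all genes. Without WT_Mor replicate 1 the number called higher was 3, that called lower 22 and the median -0.13. The shares of all genes without that library were not set beside these counts. The largest change of a member was 0.68 in size, and 2 members reached 0.5. The sum over members was 10184, 9641, 9274 and 9481 CPM in Ttf1_KO_Mor against 9915, 9888, 10479 and 9818 in WT_Mor, so the groups overlapped. Of the 27 called members 3 had libraries that overlap those of WT, namely Mrps14, Mrps24 and Mrps6.

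Mrps18c (5:100798627-100804471, overlapping Gm43511 on the same strand) rose most. It stood at 96.0, 111, 97.4 and 102 CPM in Ttf1_KO_Mor against 70.98, 63.3, 63.7 and 65.6 in WT_Mor, 1.55-fold higher (log2 0.63 ± 0.09 SE, edgeR adjusted p = 5.34e-05). All 4 knockout libraries lay above all 4 of WT. The other S18 paralogues were not called, with log2 changes of 0.03 for Mrps18a and -0.05 for Mrps18b. Mrpl57 (14:57826234-57829296), a large-subunit protein specific to mitochondria, stood at 122, 129, 123 and 115 CPM against 87.0, 88.6, 102 and 102 in WT (log2 0.38, edgeR adjusted p = 0.000907). Mrps33 rose by 0.29 (edgeR adjusted p = 0.00624) and Mrpl35 by 0.30 (edgeR adjusted p = 0.0156). The rises of Mrps14 (302, 282, 273 and 234 CPM against 214, 238, 227 and 229, log2 0.27) and Mrps24 (260.3, 280.2, 275 and 245 against 227, 209, 235 and 248, log2 0.22) came with overlapping groups.

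Mrpl19 (6:81957851-81965958, overlapping Gcfc2 on the other strand) fell most. It stood at 76.01, 61.3, 73.3 and 73.9 CPM in Ttf1_KO_Mor against 114, 121, 117 and 106.3 in WT_Mor, a fall of 0.68 on the log2 scale (edgeR adjusted p = 6.84e-05). All knockout libraries lay below all WT libraries. Mrpl41, one of the few genes that fell between the stages in WT, also fell here, to 37.8, 37.3, 40.9 and 43.2 CPM from 59.9, 59.3, 53.1 and 51.0 (log2 -0.48, edgeR adjusted p = 0.000879). Of the stalk proteins, Mrpl10 fell by 0.39 and Mrpl12 by 0.29, whereas Mrpl11 was not called (log2 -0.04). The peptidyl-tRNA hydrolase Mrpl58 fell by 0.32, to 66.6 ± 4.52 CPM from 83.9 ± 4.57.

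Among small-subunit genes, Mrps7, a protein of the head of the subunit whose gene overlaps Gga3 and Mif4gd, stood at 130.1, 127, 135 and 138 CPM in Ttf1_KO_Mor against 166, 181, 193 and 172 in WT_Mor (log2 -0.42, edgeR adjusted p = 0.00018). The groups did not overlap. Mrps35 fell by 0.45 (41.5 ± 5.65 CPM), Mrps25 by 0.40 (50.8 ± 5.09 CPM) and Mrps2 by 0.40 (104.5 ± 7.73 CPM). Mrps5 fell by 0.45 (edgeR adjusted p = 0.00458), from 40.1, 43.5, 43.8 and 43.1 to 39.2, 27.1, 30.0 and 27.9 CPM. It lies on chromosome 2 distal to Ttf1, as does Mrps26, which was not called (log2 0.17). Of the 4 members on chromosome 2, Mrps2 and Mrpl41 are not distal to Ttf1, and both were called lower (log2 -0.40 and -0.48). The part of position in these changes was not tested. By class, the count of members higher and lower was 1 and 7 of 28 for large-subunit members with a bacterial counterpart, 1 and 4 of 22 for those specific to mitochondria, 3 and 5 of 16 for small-subunit members with a bacterial counterpart, and 1 and 5 of 10 for those specific to mitochondria. Mrps36 and Mrps30 were not called (log2 -0.27 and 0.04). Under 16 alternatives of processing, including each library left out, the calls of Mrps18c, Mrpl57, Mrpl19, Mrpl41, Mrpl10, Mrps7, Mrps35, Mrps25 and Mrps2 were kept in all 16, and that of Mrps24 in 9.

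In the Zfp622 knockout at Mor, 6 of 77 members were called higher (7.79%, against 15.6% of all genes) and 10 lower (13.0%, against 13.5%). The median was -0.06, against 0.03 for all genes. This comparison shares the 4 WT_Mor libraries with that of Ttf1_KO, so calls and directions of the 2 knockouts are given side by side and not as repeats of each other. Without the 2 WT_Mor libraries that carry a second index number (replicates 3 and 4), 3 members were higher and 2 lower, and without WT_Mor replicate 2, 4 were higher and 6 lower. The second index number is an extra number in the header names of some WT libraries, and the labels do not say what it stands for. Without Zfp622_KO_Mor replicate 3, 8 were higher and 6 lower, and without Zfp622_KO_Mor replicate 1, 3 and 12. The median was -0.09 without WT_Mor replicate 1 or without Zfp622_KO_Mor replicate 1, and -0.10 without WT_Mor replicate 4. With total-count scaling 7 members were higher and 7 lower, and of all genes 2434 were higher and 1810 lower. Shares of all genes with libraries left out were not set beside the counts above. Those counts are therefore not read as a trait of the members. The sum over members was 9997, 9871, 9413 and 9860.4 CPM in Zfp622_KO_Mor, against 10025 ± 305 in WT_Mor, with overlapping groups.

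Mrps18c rose most here too, to 83.3, 91.3, 82.6 and 103.2 CPM (log2 0.46, edgeR adjusted p = 0.00119). Mrps33 stood at 119.8, 119.5, 106.6 and 132 CPM against 97.3, 92.1, 97.6 and 95.3 in WT_Mor (log2 0.33, edgeR adjusted p = 0.00394), and Mrpl57 at 117, 119, 122 and 117 CPM (log2 0.33, edgeR adjusted p = 0.00358). The knockout libraries of all of these genes lay above those of WT. Mrpl13 rose by 0.27 (edgeR adjusted p = 0.0292), Mrps24 by 0.26 (edgeR adjusted p = 0.0114) and Mrps14 by 0.24 (edgeR adjusted p = 0.0325), the last with overlapping groups. In Ttf1_KO_Mor the change of Mrpl13 was 0.11 and was not called.

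Mrpl19 fell most, to 93.03, 69.2, 77.6 and 69.5 CPM, by 0.56 on the log2 scale (edgeR adjusted p = 0.000602). Mrps6 stood at 55.0, 51.3, 54.2 and 47.5 CPM in Zfp622_KO_Mor against 57.8, 70.1, 79.2 and 69.3 in WT_Mor and fell by 0.40 (edgeR adjusted p = 0.00462). Replicate 1 of WT_Mor was the nearest of the WT libraries to the knockout. Mrpl46, a large-subunit protein specific to mitochondria whose gene overlaps Mrps11, fell by 0.31 (edgeR adjusted p = 0.00828), to 77.4, 74.5, 73.1 and 78.7 CPM from 93.2, 100.3, 102 and 83.7. Mrpl58 fell by 0.25 and Mrpl12 by 0.24. Of the small subunit, Mrps7 fell by 0.24, Mrps23 by 0.26 and Mrps27 by 0.26, the last at an edgeR adjusted p of 0.049. Mrpl41 and Mrps5 were not called (log2 -0.21 and -0.17), nor were Mrps18a (0.10), Mrps18b (0.01), Mrps26 (0.26), Mrps30 (-0.12) and Mrps36 (-0.21). The calls of Mrpl57, Mrpl19 and Mrpl46 were kept in all 16 alternatives, whereas those of Mrps14 and Mrps23 were kept in 8, that of Mrpl13 in 6 and that of Mrps27 in 5.

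**Figure D3:**
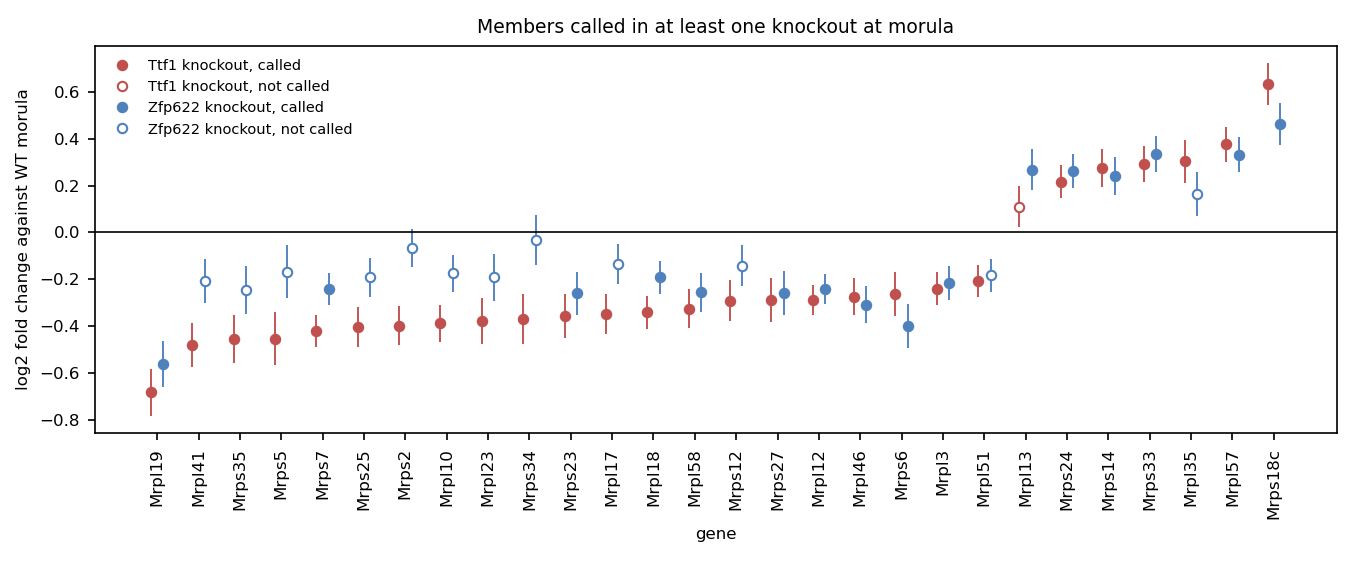
Log2 fold change against WT_Mor (y axis) in Ttf1_KO_Mor and Zfp622_KO_Mor for each member called in at least one of them (x axis); bars are SE and open symbols mark a knockout in which the member was not called. Both comparisons use the same 4 WT_Mor libraries; Mrps18c shows the largest rise (0.63 and 0.46) and Mrpl19 the largest fall (-0.68 and -0.56) in each.

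**Figure D4:**
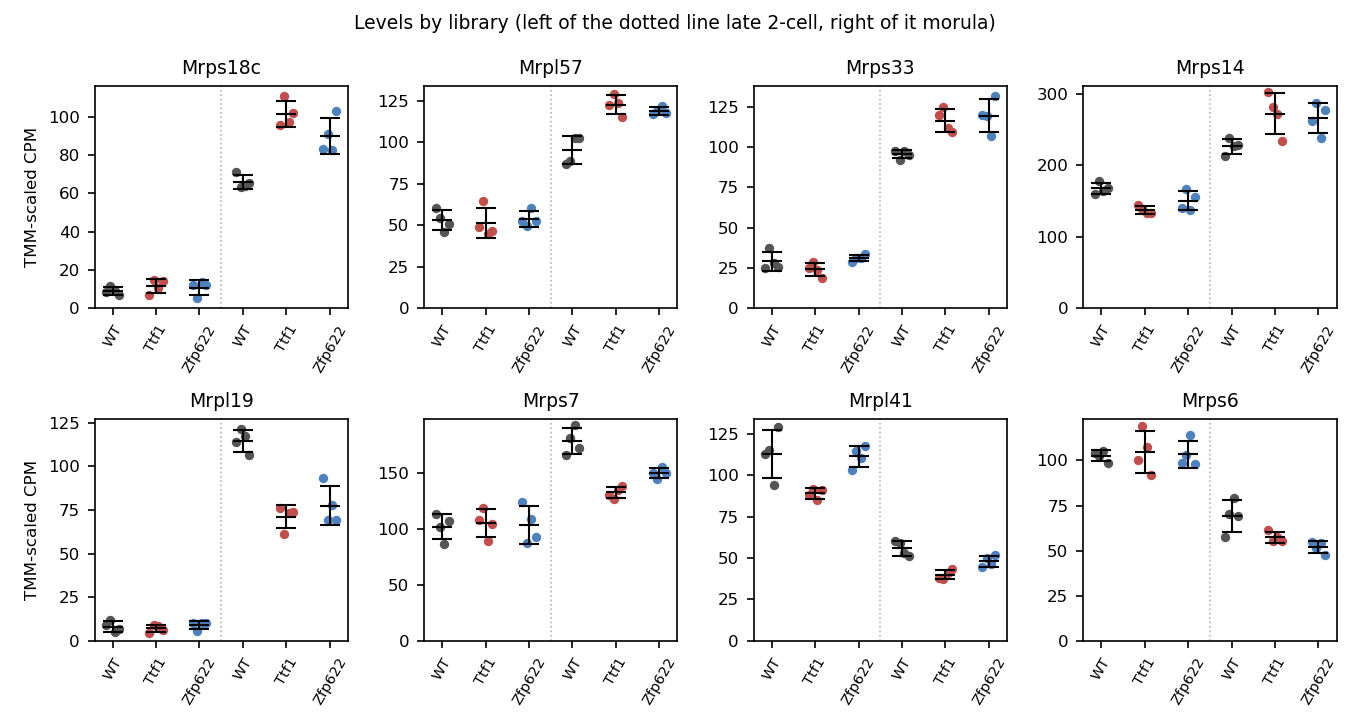
TMM-scaled CPM (y axis) of selected members in every library, by group (x axis); each point is 1 library and the bar is the group mean with its SD. At Mor the knockout libraries of Mrps18c lie above those of WT and the knockout libraries of Mrpl19 below.

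The knockouts were also compared with each other. At L2C 0 of 77 members were called between Ttf1_KO and Zfp622_KO, where 0.0179% of all genes were higher in Ttf1_KO and 0.0179% lower (3 and 3 genes, and 3 and 1 with total-count scaling). At an unadjusted p of 0.05, 0 members were higher and 6 lower. At Mor 0 of 77 were called, where 0.128% of all genes were higher and 0.101% lower (19 and 15 genes, and 11 and 16 with total-count scaling), with 0 members higher and 11 lower at an unadjusted p of 0.05. DESeq2 called 0 members at L2C and 1 at Mor. Shares of all genes at the unadjusted p or by DESeq2 were not set beside these counts. Their direction is therefore not read as a trait of the members. The smallest p at Mor was that of Mrps2, at 110.1, 93.05, 107.6 and 107.2 CPM in Ttf1_KO_Mor and 139, 132, 127 and 126 in Zfp622_KO_Mor (log2 -0.33 ± 0.08 SE, edgeR adjusted p = 0.094).

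Whether a knockout effect differed between the stages was tested as an interaction, the effect at Mor minus the effect at L2C. For Ttf1_KO the interaction was positive for 4 of 77 members (12.5% of all genes) and negative for 4 (8.65%). With total-count scaling 3 were positive and 5 negative, with median-of-ratios scaling 4 and 6, with DESeq2 6 and 9, and without the WT libraries with a second index number 4 and 1. The number called also fell to 5 without WT_Mor replicate 3 or without Ttf1_KO_Mor replicate 2, and to 4 without Ttf1_KO_Mor replicate 3. Of all genes, 2230 were positive and 1768 negative with total-count scaling, and 2268 and 1758 with median-of-ratios scaling. Shares of all genes by DESeq2 or with libraries left out were not set beside these counts. Mrps14, a protein of the small-subunit head, had the smallest p. Its level in Ttf1_KO was 138 ± 5.31 CPM at L2C against 168 ± 7.29 in WT, and 273 ± 28.6 at Mor against 227 ± 10.2, an interaction of 0.55 ± 0.12 SE (edgeR adjusted p = 0.00105). The knockout was thus lower than WT at L2C, though not past the threshold, and higher at Mor. Mrps33 (0.56) and Mrpl52 (0.62) also had positive interactions and Mrps7 (-0.47) a negative one. Mrpl52 was low at L2C, at 6.39 CPM in Ttf1_KO against 9.74 in WT. Its difference there was not called (log2 -0.61, edgeR adjusted p = 0.133), and its change at Mor was 0.03. The interaction call of Mrpl52 was kept in 17 of 22 alternatives. For Zfp622_KO the interaction was positive for 1 member (6.45% of all genes) and negative for 1 (4.21%), namely Mrps14 (0.39, edgeR adjusted p = 0.0283) and Mrps6 (-0.42, edgeR adjusted p = 0.0405). With total-count scaling 1 was positive and 0 negative (1288 and 651 of all genes). Neither gene passed without the WT libraries with a second index number, a setting for which the shares of all genes were not set beside this result.

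Other genes of mitochondrial translation were taken from lists of known roles. Between the stages in WT, 37.9% of all genes were higher at Mor and 46.1% lower, which applies to each list compared between stages below. Of the 5 mitoribosomal proteins without an Mrp symbol, 4 rose between the stages in WT. Dap3, a GTP-binding protein of the small subunit, went from 13.6 ± 1.09 to 116 ± 8.37 CPM (log2 3.09). Chchd1, also of the small subunit, rose by 3.62. Of 28 genes for mitoribosome assembly and rRNA modification 20 were higher and 5 lower (median 1.01), from Mtg1, a GTPase of large-subunit assembly (3.59 to 122 CPM, log2 5.08), to Nsun4, an rRNA methyltransferase (log2 -2.42). Of 21 mitochondrial translation factors 18 were higher and 2 lower (median 1.63). Lrpprc, which stabilises mitochondrial mRNAs, went from 10.2 ± 1.94 to 211 ± 14.4 CPM (log2 4.38), and the elongation factors Gfm1 and Tsfm rose by 2.30 and 2.50. Of 16 genes of mitochondrial DNA and RNA synthesis and processing 8 were higher and 4 lower (median 0.47), and with total-count scaling 5 and 7 (median -0.11). With that scaling 16 of the assembly and modification genes were higher and 8 lower. Tfam, which packages mitochondrial DNA, rose by 2.73, and Tfb2m, a transcription factor of mitochondria, fell by 1.21.

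RNA encoded in mitochondria moved the other way between the stages. Both mitochondrial rRNAs were lower at Mor in WT, with a sum of 15257 ± 401 CPM at L2C and 9925 ± 809 at Mor. Of the 13 mitochondrial mRNAs 10 were lower and 0 higher (sum 32648 ± 1829 to 19119 ± 1421 CPM). The libraries were primed with oligo-dT, so levels of these rRNAs depend on how well their tails are captured, which was not tested. For comparison, 82 of 86 cytosolic ribosomal protein genes (median 2.32) and 75 of 77 tested nuclear genes of oxidative phosphorylation (median 2.33) were higher at Mor, medians near that of the members.

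At Mor in the knockouts, the factors of mitochondrial translation were mostly lower where they were called. In Ttf1_KO 1 of 21 translation factors was higher and 10 lower (median -0.33), where 21.3% of all genes were higher and 17.9% lower. In Zfp622_KO 2 were higher and 8 lower (-0.26), where 15.6% of all genes were higher and 13.5% lower. These shares apply also to the assembly and processing genes below. Lrpprc stood at 110.5, 92.2, 103.1 and 117 CPM in Ttf1_KO_Mor and 135, 109.5, 124 and 98.98 in Zfp622_KO_Mor against 220.3, 190.0, 211 and 221 in WT_Mor. It fell by 0.99 (edgeR adjusted p = 3.56e-06) and by 0.84 (edgeR adjusted p = 3.3e-05), more than any member. Gfm1 fell by 0.55 and 0.43, and Slirp, the partner of Lrpprc, rose by 0.58 and 0.57. Dap3 fell by 0.71 in Ttf1_KO (edgeR adjusted p = 7.53e-05) and by 0.52 in Zfp622_KO (edgeR adjusted p = 0.00155). Of the 28 assembly and modification genes 3 were higher and 11 lower in Ttf1_KO (median -0.22), and 1 and 5 in Zfp622_KO (-0.11), with Mtg1 lower by 0.50 and 0.43. Of the 16 synthesis and processing genes 1 was higher and 6 lower in Ttf1_KO, and 1 and 5 in Zfp622_KO. Without the WT libraries with a second index number 0 translation factors were higher and 9 lower in Ttf1_KO, and 0 and 3 in Zfp622_KO. The shares of all genes without those libraries were not set beside these counts. Elac2, which trims mitochondrial tRNAs, fell by 0.67 and 0.62.

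Mitochondrially encoded RNAs were called higher in both knockouts at Mor. For all lists of this paragraph, the shares of all genes were 21.3% higher and 17.9% lower in Ttf1_KO_Mor. In Zfp622_KO_Mor they were 15.6% and 13.5%. Both mitochondrial rRNAs passed in each, with sums of 16008 ± 1504 CPM in Ttf1_KO_Mor and 13452 ± 2889 in Zfp622_KO_Mor against 9925 ± 809 in WT_Mor. Of 13 mitochondrial mRNAs 8 were higher in Ttf1_KO and 7 in Zfp622_KO, and 0 lower. Without the WT libraries with a second index number, both rRNAs passed in Ttf1_KO and 0 in Zfp622_KO, and 9 and 5 of the mRNAs were higher. Of 85 cytosolic ribosomal protein genes 50 were higher and 1, Rpl3, lower in Ttf1_KO_Mor (median 0.25), and 26 and 1, again Rpl3, in Zfp622_KO_Mor (0.14), and without those WT libraries 27 and 7 were higher. Of 77 nuclear oxidative phosphorylation genes 14 were higher and 20 lower in Ttf1_KO_Mor (median -0.04), and 11 and 11 in Zfp622_KO_Mor (-0.02). The members' medians of -0.08 and -0.06 lie near those of the nuclear oxidative phosphorylation genes. Shares of all genes without the WT libraries with a second index number were not set beside the counts for that setting. Lists were described by counts and medians only, and differences between lists were not tested.

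**Figure D5:**
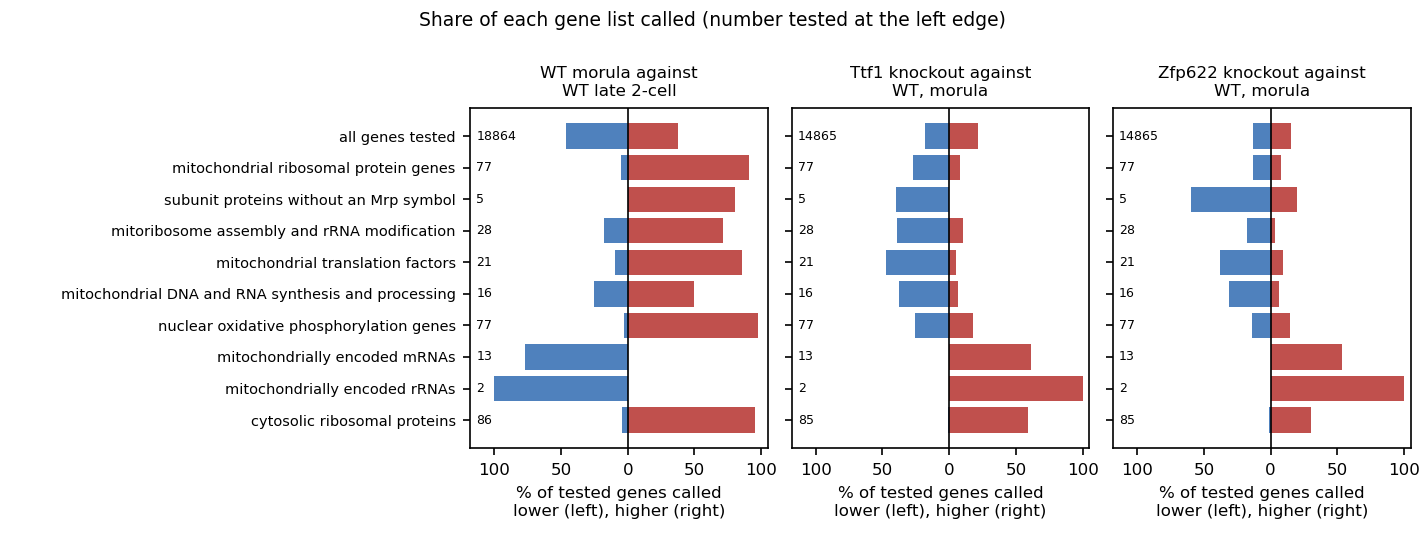
Percent of the tested genes of each list called higher (right) or lower (left) in WT_Mor against WT_L2C and in each knockout against WT_Mor (x axis), with the number tested beside each list (y axis). In WT the members are called higher in 90.9% of cases; at Mor in Ttf1_KO they are called lower in 27.3% and in Zfp622_KO in 13.0%.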

How the data were processed

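Messenger RNA of mouse embryos was counted in 24 libraries. Values are counts of read pairs per gene as deposited. Paired reads of 150 bases were aligned with HISAT2 2.2.1, per the submitters' processing notes, and assigned to exons with featureCounts 2.0.1 on Ensembl release 99 for GRCm38, per the file headers, with no strand option, no multi-mapping reads and no pairs in overlapping exons. Groups came from sample titles, since the genotype and strain labels of the Zfp622 libraries count upward. Lane was read from names in the file headers. What is called a second index number is an extra number in those names, which the labels do not explain. Only WT_L2C replicate 4 and WT_Mor replicates 3 and 4 carry it. The labels state 10 embryos per library, so p-values measure the spread between such pools.

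Biotypes came from GENCODE M21 (54937 of 55471 genes at the same coordinates, among them all 78 members). Exon lengths came from the count files and symbols from a reference of gene names. Genes kept by filterByExpr were scaled by TMM and fitted with robust quasi-likelihood models in edgeR 4.0.16 (R 4.3.3). Knockouts were compared over the 12 libraries of a stage and stages and interactions over all 24, and genes were called at an adjusted p up to 0.05 (Benjamini-Hochberg, over all genes). The procedure was tested on simulated data. Alternatives were DESeq2 1.42.0, its size factors, total counts, no filter, replicate block, each library left out, other sets of libraries, and omission of WT libraries with a second index number; those for the other lists were chosen after the data were seen. The members and gene lists were chosen with earlier results of these data known. Genes named were, per knockout comparison, up to 8 rises and 8 falls past the threshold (else the 3 smallest p), likewise between the stages, up to 4 per interaction or knockout pair, the 4 highest and 4 lowest per kilobase, the S18 paralogues, Mrps36, Mrps30, Mrpl12, Mrpl58, members distal to Ttf1, untested members and leading genes of other lists. Mrpl11 in the knockouts, Mrpl22, Slirp and Rpl3 were added for their roles after values were seen. One gene of the synthesis and processing list, Prorp, was not matched by symbol. Checks of duplicated libraries found none.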

Additional observations from a re-analysis of the deposited data

Results flagged for a closer look

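In 240 groups of 4 libraries, 1 library lay far from the other 3 in 9 (3.75%), where the limit used gives about 5% by chance. Mrps36 was lowest in 1 WT_L2C library at 24.03 CPM, with the others at 27.7 to 27.9. The summed members were highest in 1 WT_Mor library at 10479 CPM, with the others at 9818 to 9915. Mrpl46 was highest in 1 Ttf1_KO_L2C library at 57.8 CPM, against 41.2 to 43.3. Mrps27 was lowest in 1 Ttf1_KO_Mor library at 30.4 CPM, against 35.7 to 36.4. In Zfp622_KO_L2C the same library (replicate 2) was lowest for Mrpl19, at 5.84 CPM against 10.0 to 10.5, and for Mrps18b, at 28.2 CPM against 33.8 to 34.9. In Zfp622_KO_Mor, replicate 4 was lowest for Mrpl10, at 81.96 CPM against 88.4 to 89.4. Replicate 3 was lowest for Mrpl35, at 139 CPM against 181 to 185, and for Mrps18a, at 112 CPM against 122 to 124.

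The effect of a knockout differed between the stages for 10 gene and knockout combinations by the interaction test in edgeR, given as the log2 effect at Mor minus that at L2C. For Ttf1_KO it was positive for Mrps14 (0.55, adjusted p = 0.00105), Mrps33 (0.56, adjusted p = 0.0145), Mrpl52 (0.62, adjusted p = 0.0257) and Mrpl57 (0.41, adjusted p = 0.0428). It was negative for Mrps7 (-0.47, adjusted p = 0.0178), Mrpl10 (-0.43, adjusted p = 0.0318), Mrps25 (-0.49, adjusted p = 0.0323) and Mrpl4 (-0.32, adjusted p = 0.0343). For Zfp622_KO it was positive for Mrps14 (0.39, adjusted p = 0.0283) and negative for Mrps6 (-0.42, adjusted p = 0.0405).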

How the results depend on the processing

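Between the stages in WT, 72 to 74 members were called under every alternative, with 63 to 70 higher. In Ttf1_KO_L2C, against 0 called, DESeq2 called 3, no filter 1, only the 8 libraries compared 1 and all 24 libraries 3. In Zfp622_KO_Mor, against 16, omission of the WT libraries with a second index number left 5 and the fit on all 24 libraries called 7. Between the knockouts at Mor, against 0, DESeq2 and no filter each called 1. For the interaction of Ttf1_KO, against 8, DESeq2 called 15 and omission of the WT libraries with a second index number left 5. For that of Zfp622_KO, against 2, DESeq2 called 4, total counts only 1, no filter 1 and omission of those WT libraries 0. The causes were not tested. Shares of all genes under the alternatives of this section were not set beside the counts. A gain or loss of calls is therefore not read as a trait of the members. In Ttf1_KO_Mor, against 27, the alternatives called 18 (all 24 libraries) to 34 (DESeq2).

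With each library left out in turn, 0 to 1 members were called in Ttf1_KO_L2C, 23 to 32 in Ttf1_KO_Mor, 0 to 0 in Zfp622_KO_L2C and 10 to 16 in Zfp622_KO_Mor. Between the knockouts 0 were called at either stage and between the stages 72 to 74. For the interaction 4 to 9 were called for Ttf1_KO and 0 to 3 for Zfp622_KO. For members named in a comparison by size of change or smallest p, 750 of the values under an alternative kept direction and side of the threshold. Of the others 98 lost the call, 8 gained one and 0 turned sign. The stage changes of the 8 members whose sign turned under total counts were not among these values. The replicate numbers did not pair the libraries (36 correlations from -0.25 to 0.141, 2 of them over 0.1). With the replicate block, 0 members were called in Ttf1_KO_L2C, 28 in Ttf1_KO_Mor, 0 in Zfp622_KO_L2C, 14 in Zfp622_KO_Mor, 0 between the knockouts, 74 between the stages, and 7 and 2 for the interactions.

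Depth limits the members lowest at L2C: Mrps5 stood at 1.58, 3.00, 0.820 and 1.39 CPM in the WT_L2C libraries. Lane cannot be told apart from the Ttf1 knockout, and pseudogene or overlapping reads were not separated.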

Other observations

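Genes of the cytosolic ribosome were called lower in the Ttf1 knockout at L2C. Of 86 cytosolic ribosomal protein genes 16 were lower and 0 higher (median log2 change -0.19), where 0.799% of all genes were lower and 0.739% higher, and 0 of 77 members passed. Rps21, of the small cytosolic subunit, fell by 0.61 (edgeR adjusted p = 0.00348) and Rpl35, of the large one, by 0.66 (edgeR adjusted p = 0.00348). The cytosolic ribosomal protein genes summed to 21991, 22335, 20732 and 20771 CPM in Ttf1_KO_L2C and to 23891, 26327, 23934 and 23291 in WT_L2C, and the groups did not overlap. With total-count scaling 9 were lower, and without the WT_L2C library with a second index number 7, and 0 higher in either case. Of all genes, 96 were lower and 141 higher with total-count scaling. The shares without that library were not set beside the count. The difference between the lists was not tested, and lane cannot be told apart from this knockout.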
